A study of Mus musculus with 8 samples.

Results

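The genes described here are 10 sensors of microbial products and their partners, namely Tlr2, Tlr4, Tlr7, Tlr9, Tlr13, Cd14, Ly96, Myd88, Trem1 and Nod2. They were taken by symbol from the 32285 genes of the single-cell matrices. For each gene, unique molecular identifiers (UMIs, each standing for 1 captured RNA molecule) were summed over the cells of a type. The sum is given in CPM, the counts of the gene scaled to a fixed total of UMIs in those cells, with the share of cells holding at least 1 UMI.

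Toll-like receptors bind conserved microbial molecules, at the cell surface for lipids and lipoproteins and in endosomes for nucleic acids. Lipopolysaccharide is handed by CD14 to the complex of TLR4 with MD-2, the product of Ly96, and TLR2 senses bacterial lipoproteins. TLR7 and TLR13 detect RNA, TLR9 detects unmethylated CpG DNA, NOD2 detects muramyl dipeptide in the cytosol, and MyD88 is the adaptor that most Toll-like receptors share. TREM-1 is a surface receptor of neutrophils and monocytes that amplifies such signals.

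The data came from CD45.2-positive cells sorted from the perfused brain parenchyma of C57BL/6J wild-type (WT) mice and App NL-G-F knock-in mice, called App here, labelled as 16 weeks old. App NL-G-F mice express a humanized amyloid precursor protein with familial Alzheimer mutations from the endogenous gene, and every App group carries them. Control mice of each genotype drank water, acute colitis mice drank 2% dextran sulfate sodium (DSS) for 1 week, chronic colitis mice had 3 cycles of 2% DSS and water for 5 days each, and a further group of each genotype had food allergy, which was induced with ovalbumin. Each of these 8 groups is 1 library, so library and condition cannot be told apart.

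Of 50098 cells kept, 4875 to 7199 came from each library, with 25620628 to 54618574 UMIs. Antibody hashtags split the cells into 30 hashtag groups, 3 or 4 in each library, and these served as the samples of every test. The sources do not say which mouse or pool a hashtag stands for, so p-values measure only the spread between hashtag groups inside these libraries. For App chronic colitis the study counts fewer mice than there are hashtags, so hashtag groups there may share an animal and its p-values may be too small. The hashtag groups fell into 2 sets by the summed level of 10 immediate-early genes (Fos, Jun, Egr1 and others that respond within minutes to stimulation) in T cells. That level was 608 to 1450 CPM in 14 groups, called the low set, and 3292 to 6550 CPM in 16 groups, called the high set. All libraries held groups of both sets. A total of 1482 of 48582 distinct cell barcodes occurred in more than 1 library.

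Cells fell into 22 types by marker genes, with 38750 cells that carried UMIs of at least 2 markers of their own type. The myeloid types that matter most here were neutrophils (4996 cells), neutrophil precursors (2078 cells), monocytes (1186 cells), macrophages (1521 cells), type 1 conventional dendritic cells (cDC1, 1458 cells) and type 2 conventional dendritic cells (cDC2, 756 cells). Only 71 cells were microglia, the resident macrophages of the brain, although the tissue label is brain.

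Each receptor had its own set of cell types, as the dot plot of levels by cell type shows. Summed over libraries, Cd14 was highest in microglia (1265 CPM, exact 95% Poisson interval 1129 to 1413), macrophages (979 CPM, 954 to 1006), monocytes (759 CPM, 740 to 777) and neutrophils (628 CPM, 620 to 635). It was detected in 75.4% of macrophages and 0.267% of CD8 T cells, whose median depths were 3005 and 2845 UMIs. These intervals cover counting error only. Between libraries the neutrophil level ran from 45.9 to 2473 CPM and the monocyte level from 215 to 1647 CPM, and the library ranges of macrophages, monocytes and neutrophils overlapped. By median library the order was neutrophils (908 CPM), macrophages (842 CPM) and monocytes (384 CPM). Only 1 library, App food allergy, had 100000 UMIs of microglia, and its 1022 CPM lay inside the macrophage range of 563 to 1942 CPM. In the barcodes too small to be cells, which sample the free RNA of each library, Cd14 stood at 39.3 to 424 CPM and Trem1 at 20.0 to 203 CPM; the part of free RNA in the results was not tested.

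**Figure D1:**
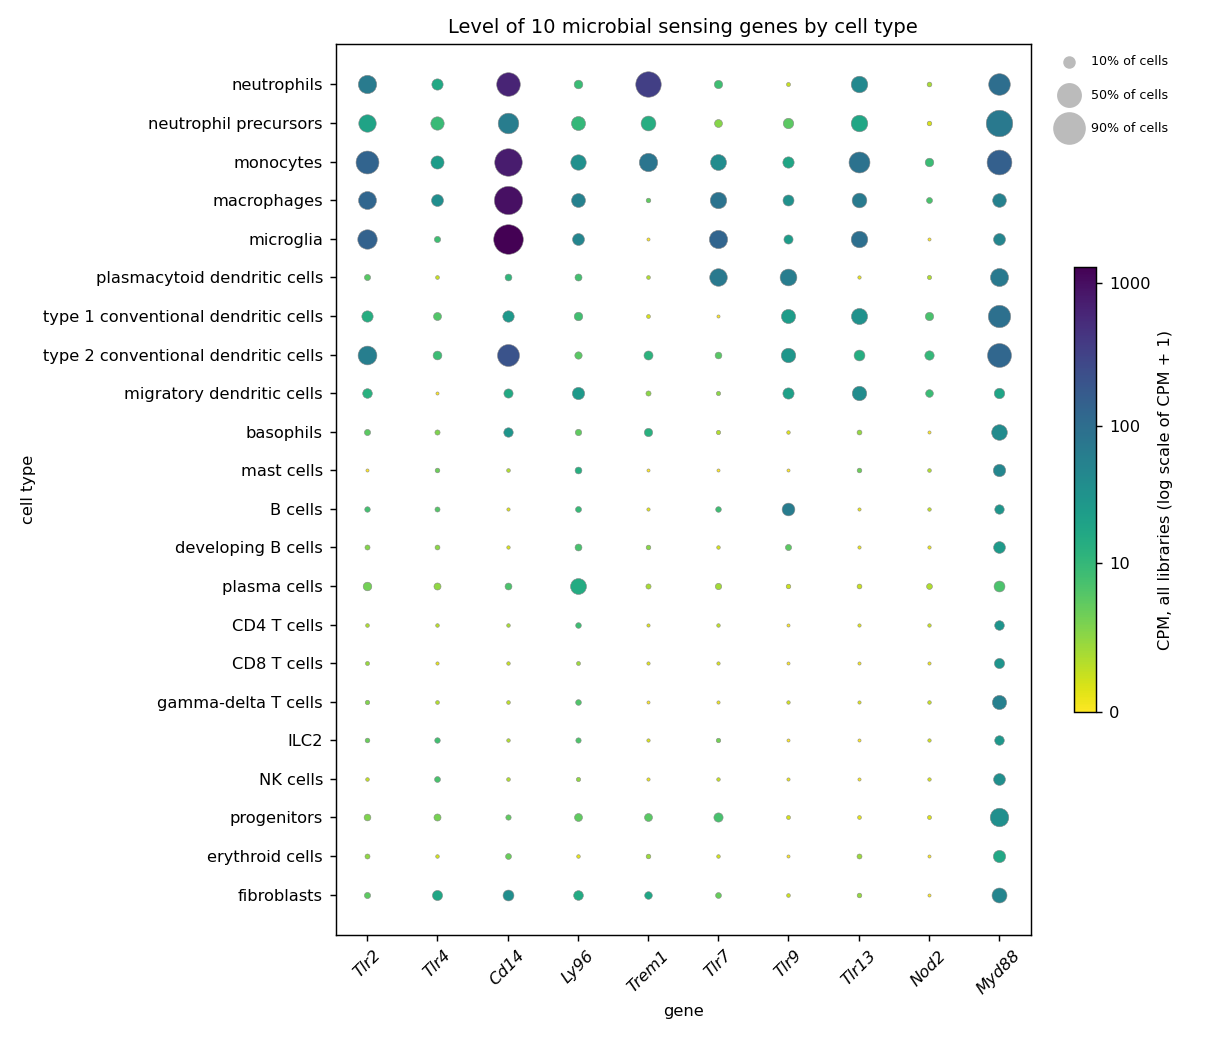
Level of the 10 genes (horizontal axis) in the 22 cell types (vertical axis) over all libraries together. Colour gives CPM on a log scale of CPM + 1 and dot area gives the share of cells with at least 1 UMI; Cd14 reaches 1265 CPM in microglia and Trem1 341 CPM in neutrophils, while Myd88 is present in every row.

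The other parts of the lipopolysaccharide receptor also led in phagocytes. Tlr4 was highest in macrophages (37.5 CPM), followed by monocytes (24.7 CPM), fibroblasts (17.9 CPM) and neutrophils (16.5 CPM). Ly96 was highest in macrophages (56.1 CPM) and microglia (48.2 CPM), whose intervals overlapped, ahead of monocytes (35.1 CPM). Tlr2 reached 141 CPM in microglia, 133 CPM in monocytes and 125 CPM in macrophages, and the intervals of these 3 types overlapped. Neutrophils had 65.9 CPM of Tlr2 and cDC2 had 60.4 CPM, against 2.04 CPM in CD8 T cells.

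The nucleic acid sensors divided between phagocytes, plasmacytoid dendritic cells and B cells. Tlr7 was led by microglia (129 CPM), macrophages (84.4 CPM) and plasmacytoid dendritic cells (71.0 CPM). The interval of microglia overlapped with that of macrophages. In cDC1, 0 of 1458 cells had a Tlr7 UMI, which allows a share of up to 0.206% of cells with a UMI and sets no limit on cells expressing the gene. Tlr9 stood at 64.4 CPM in B cells and 63.1 CPM in plasmacytoid dendritic cells, with overlapping intervals. In libraries of B cells it ran from 51.2 to 79.2 CPM. Tlr13, which detects bacterial ribosomal RNA, was highest in microglia (96.4 CPM), monocytes (85.7 CPM) and macrophages (67.9 CPM), and reached 34.3 CPM in cDC1 against 0.276 CPM in B cells. The interval of microglia overlapped with those of monocytes and macrophages, and its level in App food allergy was 57.9 CPM.

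Trem1 lay mostly in neutrophils, since 89.3% of its 14785 UMIs over all typed cells were found there. Its level was 341 CPM in neutrophils and 78.5 CPM in monocytes, with 61.3% and 31.4% of cells positive, against 4.797 CPM in macrophages. That order did not hold in every group. Trem1 was at 48.0 to 91.7 CPM in low-set neutrophil groups and at 172.9 CPM in the summed monocyte groups of WT control. Nod2 was sparse, at 10.0 CPM in cDC2, 8.89 CPM in monocytes and 8.83 CPM in migratory dendritic cells, whose intervals overlapped, and it passed the count filter of no test. Myd88 was found in all 22 types, led by monocytes (149 CPM), cDC2 (122 CPM), neutrophils (100.02 CPM) and cDC1 (93.6 CPM), with 31.0 CPM in CD8 T cells.

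Among 7848 genes compared over the 22 types, the pattern of log2(CPM + 10) most like that of Tlr2 was Cd14 (Pearson r = 0.971), and the converse held for Cd14. The genes most like Trem1 were Il1r2 (r = 0.958), Clec4e (r = 0.957) and Rhou (r = 0.947). Tlr9 was closest to Fgd2 (r = 0.916), Cd180 (r = 0.912) and Pkib (r = 0.907), and Tlr13 to Slc11a1 (r = 0.909), Tlr2 (r = 0.905) and Cd14 (r = 0.885). Cell types of 1 library share its depth and ambient RNA, so these values are descriptions.

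The sequences before the start of Trem1 and Tlr2 are shown because both genes were higher in the high immediate-early set in neutrophil precursors, as given next. In neutrophils Trem1 was called between the sets and Tlr2 was not. Cd14 was called in both cell types, but its sequence is not shown. They are reference bases from RefSeq on GRCm38.p6, in the direction of transcription, and for Tlr2 only the 91 bases of the window that lie outside the annotated gene. Capitals mark matches to the NF-kappaB motif, searched on both strands; it occurred in 7.25% of 32851 windows of the same 250 bases before a RefSeq start, and in 1 of the 6 windows found for members, that of Tlr2. The AP-1 motif TGANTCA, bound by Fos and Jun proteins, occurred in 6.75% of all windows and in that of Tlr9 only among members. A match is a string of letters and not a shown site.
Trem1, chr17:48232489-48232738, plus strand: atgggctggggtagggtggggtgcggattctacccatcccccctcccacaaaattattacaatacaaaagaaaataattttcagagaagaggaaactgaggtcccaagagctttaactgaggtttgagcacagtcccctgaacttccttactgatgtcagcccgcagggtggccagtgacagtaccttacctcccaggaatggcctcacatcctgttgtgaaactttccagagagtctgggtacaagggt
Tlr2, chr3:83841768-83841858, minus strand: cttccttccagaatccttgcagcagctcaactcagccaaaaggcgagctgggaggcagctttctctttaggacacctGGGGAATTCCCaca

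Among the tests run, the largest rises of members were between the immediate-early sets. There 6 of 26 member tests in 9 cell types were called. Of all gene tests in the 10 cell types with this comparison, 4.81% were called. In neutrophils, Cd14 lay between 0 and 35.4 CPM (median 7.93 CPM) in the 7 low-set groups and between 492 and 3439 CPM (median 1013 CPM) in the 16 high-set groups. Trem1 lay between 48.0 and 91.7 CPM in the low set and between 246 and 996 CPM in the high set. The groups did not overlap for either gene. Fitted with the library as a term, Cd14 was higher in the high set by 5.42 on the log2 scale (SE 0.42, adjusted p = 1.46e-09) and Trem1 by 2.86 (SE 0.22, adjusted p = 1.14e-09). Of all 6251 genes tested in neutrophils, 19.3% differed between the sets, and 2 of the 7 members tested did. The low-set neutrophil groups all came from App libraries, since the WT libraries had under 20 neutrophils in each low-set group.

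In App control, where both sets were captured in the same library, neutrophils of hashtags 4 and 5 held 0 and 7.93 CPM of Cd14 and those of hashtags 6 and 7 held 926 and 1275 CPM. App acute colitis showed the same split inside 1 library. Hashtag 7, in the low set, held 1202 of its 1309 neutrophils and had 35.4 CPM of Cd14, against 575 and 529 CPM in hashtags 4 and 5. The level of App acute colitis neutrophils as a whole is therefore mostly that of 1 hashtag group. Neutrophil clusters held the sets unevenly. A cluster of 1780 low-set and 323 high-set cells had 33.6 and 123 CPM of Cd14 and 66.1 and 99.4 CPM of Trem1. These differences were smaller than those between hashtag groups. Another, with 2041 high-set cells, had 1612 CPM of Cd14 and 821 CPM of Trem1. A further cluster of 36 low-set and 477 high-set cells had 1.33 and 439 CPM of Cd14 and 38.6 and 197 CPM of Trem1.

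Neutrophil precursors, the granule-forming cells of the bone marrow, repeated the pattern at lower levels. Cd14 was 7.19 to 11.8 CPM in 7 low-set groups and 51.7 to 280 CPM in 11 high-set groups, higher by 4.04 on the log2 scale (SE 0.28, adjusted p = 5.75e-09). Trem1 was 0 to 8.91 CPM against 11.9 to 68.6 CPM, higher by 2.57 (SE 0.30, adjusted p = 1.39e-05). Tlr2 overlapped slightly, with 6.83 to 17.3 CPM against 15.4 to 43.1 CPM, and was higher by 1.39 (SE 0.24, adjusted p = 0.00153). Here 3 of 8 members were called against 2.1% of all genes tested. Neutrophil markers in these precursors were at 151 CPM in the low-set and 20110 CPM in the high-set group of WT control, and at 130 to 301 CPM against 11020 to 13070 CPM in App control. Over all groups they overlapped, with 130 to 6840 CPM in the low and 439 to 20110 CPM in the high set, and their part in the result was not tested. In ILC2, group 2 innate lymphoid cells, Myd88 was lower in the high set by a log2 difference of -0.85 (SE 0.23, adjusted p = 0.0227), with 29.1 to 84.6 CPM in the low set and 15.4 to 40.7 CPM in the high set; 4.17% of genes tested there were called. That call was lost in 4 of 8 alternatives and without hashtag 4 of App control, hashtag 4 of WT control or hashtag 7 of WT food allergy.

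**Figure D2:**
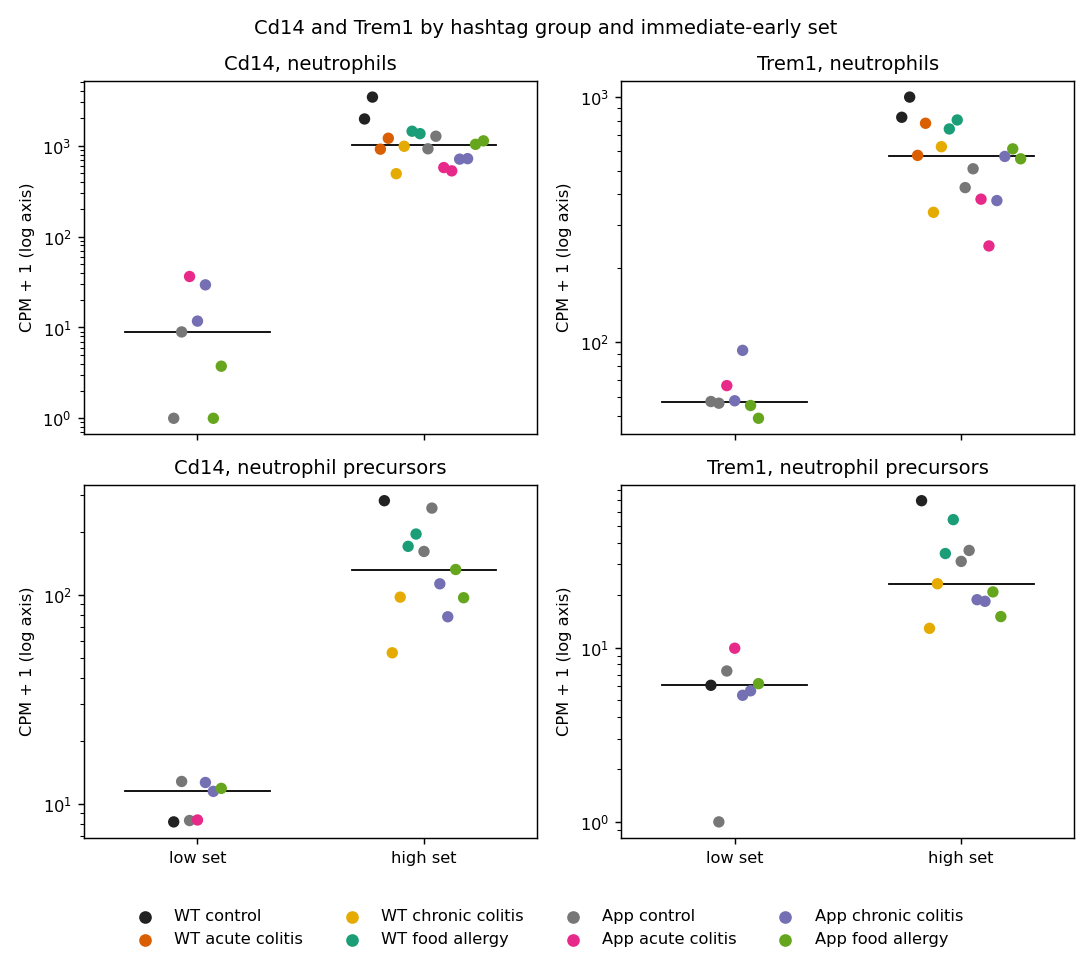
CPM + 1 on a log axis for Cd14 and Trem1 in neutrophils (top) and neutrophil precursors (bottom). Each point is 1 hashtag group coloured by library and lines are medians; the low and high immediate-early sets do not overlap in any panel.

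The immediate-early genes themselves followed the same division in neutrophils, with 816 to 1455 CPM in low-set and 4717 to 14100 CPM in high-set groups. The neutrophil markers went the other way with a small overlap, at 381500 to 413700 CPM in low-set and 246500 to 386700 CPM in high-set groups. The mitochondrial share of UMIs was 0.163% to 0.320% in low-set and 0.278% to 0.447% in high-set groups. The 6 monocyte markers summed to 1401 to 6429 CPM in low-set and 2750 to 7643 CPM in high-set neutrophils, and the 8 macrophage markers to 5.69 to 28.2 and 14.9 to 481 CPM. In high-set monocytes the monocyte markers summed to 3564 to 15260 CPM, which overlapped with these neutrophils, and in macrophages the macrophage markers summed to 23120 to 45910 CPM. Their part in the result was not tested. The other members overlapped between the sets in neutrophils. Tlr4 had medians of 18.8 and 18.9 CPM, and Myd88 of 103 and 83.4 CPM.

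For treatment against control, 280 tests of members in 72 combinations of cell type and comparison gave 25 calls. Of these, 24 were lower and 1 higher than control. Of all gene tests for treatment, 1.57% were called, counting also combinations that held no member test. All member calls were in monocytes, dendritic cells, macrophages or neutrophil precursors. Each combination was fitted with the set as a term where both sets were present. With the high set alone the count was 35, of which 23 were among the 25. Without a set term it was 10, and with a set term only where each set had 2 groups it was 11. Macrophages and cDC1 had only high-set groups in the fits, so none of these changes could alter their calls. Such calls are part of each of these counts.

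Monocytes carried most of the differences. In WT control the 2 high-set groups had 1511 and 1824 CPM of Cd14, against 286 and 370.5 CPM in WT acute colitis and 468 and 629 CPM in WT food allergy. WT chronic colitis had a single group, at 185 CPM, and was not tested. Every treated WT group was below both control groups. Cd14 was lower in acute colitis by a log2 change of -2.40 (SE 0.24, adjusted p = 2.34e-07) and in food allergy by -1.61 (SE 0.21, adjusted p = 2.09e-05). The monocyte fit holds a single low-set group, hashtag 5 of App control. Among the monocyte calls for treatment, those of Trem1 and Myd88 in WT acute colitis were also made with no set term and with no set term for a lone group, and the others were not.

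Trem1 in the same monocytes had 149.5 and 201.1 CPM in WT control and 20.0 and 10.7 CPM in WT acute colitis, a log2 change of -3.39 (SE 0.41, adjusted p = 3.70e-06). In WT food allergy it had 54.8 and 70.1 CPM (log2 change -1.51, adjusted p = 0.000225). Tlr2 went from 210 and 270 CPM to 132 and 134 CPM in acute colitis (log2 change -0.88, adjusted p = 0.00374) and to 97.2 and 108 CPM in food allergy (log2 change -1.23, adjusted p = 3.65e-05). Both genes were thus below control in every treated WT group. Tlr2 in acute colitis lost its call without hashtag 4 of that group.

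Myd88 and Tlr4 were called in acute colitis only, which is no test that food allergy differs from it. Myd88 had 183 and 219 CPM in WT control and 65.8 and 91.3 CPM in WT acute colitis (log2 change -1.44, SE 0.24, adjusted p = 0.000283), a call lost without hashtag 4 of acute colitis. Tlr4 rested on 4 UMIs in the acute colitis groups, with 11.4 and 0 CPM against 33.9 and 39.0 CPM (log2 change -2.29, adjusted p = 0.0179), a call lost without hashtag 5 of acute colitis or hashtag 7 of control. Tlr13 was the single member above control, in food allergy, with 115 and 98.5 CPM against 61.4 and 71.3 CPM (log2 change 0.72, SE 0.21, adjusted p = 0.0441). It kept its call in 3 of 9 alternatives and in 15 of 28 fits that left out 1 hashtag group. These counts, 5 of 9 members in acute colitis and 4 of 9 in food allergy, stood against 12.4% and 7.1% of all genes called.

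In App monocytes the direction was the same. Cd14 had 785 and 919 CPM in the high-set groups of App control, 279 and 446 CPM in acute colitis (log2 change -1.31, SE 0.27, adjusted p = 0.00722), and 269 and 420 CPM in chronic colitis (log2 change -1.40, SE 0.24, adjusted p = 0.000962). The third App control group, hashtag 5, belonged to the low set and had 15.8 CPM. Trem1 had 83.0 and 91.9 CPM in the high-set control groups. In App acute colitis it rested on 2 UMIs, a ratio to control of 0.0937 (exact 95% interval 0.0112 to 0.347, adjusted p = 0.0108), and in chronic colitis on 42.4 and 11.9 CPM (log2 change -1.75, adjusted p = 0.0182). Tlr2 was lower in chronic colitis, at 77.8 and 71.3 CPM against 142 and 138 CPM (log2 change -0.98, adjusted p = 0.0250). No member was called in App food allergy, where Cd14 was at 400.4 and 637 CPM. Calls numbered 2 of 9 in acute and 3 of 9 in chronic colitis, where 2.24% and 2.81% of all genes were called. The calls in acute colitis were lost without its hashtag 4 or hashtag 7 of control. Those in chronic colitis were lost without hashtag 6 (Cd14, Tlr2) or 7 (Trem1, Tlr2) of chronic colitis, and those of Trem1 and Tlr2 also without hashtag 7 of control.

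**Figure D3:**
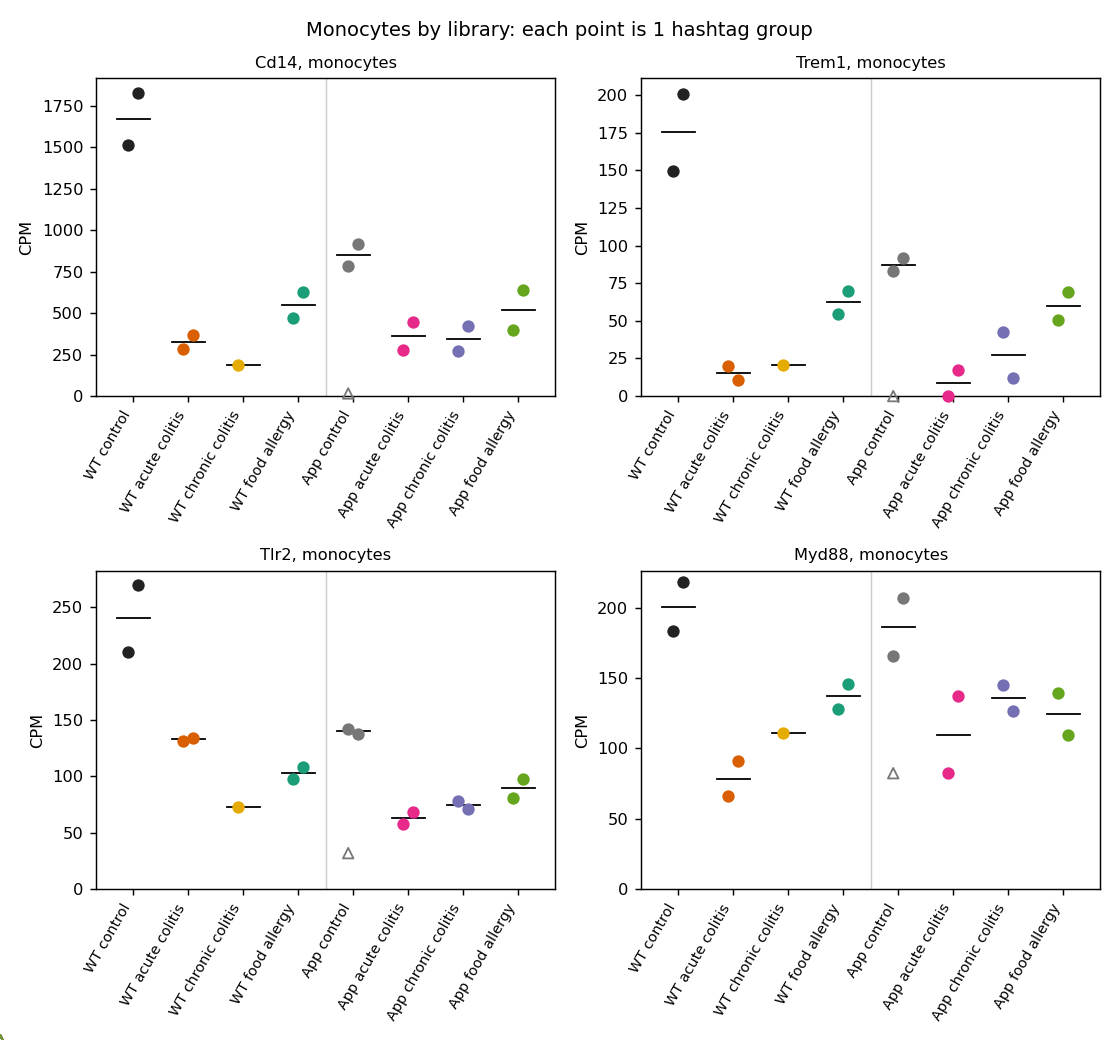
CPM of Cd14, Trem1, Tlr2 and Myd88 in monocytes by library, WT on the left and App on the right of the grey line. Filled circles are high-set hashtag groups, the open triangle is the low-set group and lines are means of the high set; the 2 WT control groups lie above every other group for Cd14, Trem1 and Tlr2.

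Other properties of these monocytes moved along with the members. The 6 monocyte markers summed to 13380 to 15260 CPM in WT control, 5984 to 6550 CPM in WT acute colitis and 6299 to 6894 CPM in WT food allergy. The 8 macrophage markers summed to 5475 to 6218 CPM in WT control, and to 2228 to 2530 and 2378 to 2767 CPM in those groups. The immediate-early genes were at 14490 to 14920 CPM in WT control and at 9006 to 10820 and 10350 to 11210 CPM. Neutrophil markers were at 1929 to 1972 CPM in WT control and 408 to 1766 CPM in acute colitis, against 246500 CPM or more in high-set neutrophils. In App monocytes of the high set, neutrophil markers were at 3208 to 7779 CPM in control, 352 to 378 CPM in acute colitis and 388 to 453 CPM in chronic colitis. Macrophage markers there were at 3714 to 5624, 2549 to 4278 and 746 to 1204 CPM, monocyte markers at 9308 to 12670, 3564 to 6308 and 7074 to 7184 CPM, and immediate-early genes at 11290 to 12170, 8893 to 9072 and 7778 to 8749 CPM. Their part in the result was not tested.

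In cDC1, which cross-present antigen, Myd88 was lower in 5 of 6 treatment comparisons. All groups of this type with at least 20 cells were high set. WT control had 182 and 222 CPM, against 59.1 and 59.6 CPM in acute colitis, 71.8 and 57.9 CPM in chronic colitis, and 95.7 and 97.8 CPM in food allergy. The WT control groups did not overlap with any treated group. The log2 changes were -1.65 (SE 0.21, adjusted p = 6.14e-06), -1.47 (SE 0.21, adjusted p = 4.52e-05) and -1.03 (SE 0.22, adjusted p = 0.00603). In each of them 1 of 5 members was called, against 5.76%, 5% and 2.97% of all genes.

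App control had 130 and 178 CPM of Myd88 in cDC1, acute colitis 69.4 and 39.9 CPM, and chronic colitis 64.5 and 74.3 CPM. The log2 changes were -1.51 (SE 0.23, adjusted p = 0.000498) and -1.10 (SE 0.20, adjusted p = 0.00476), with 1.38% and 0.95% of all genes called. App food allergy had 131 and 98.8 CPM, which overlapped with control (log2 change -0.41, SE 0.21, adjusted p = 0.770). These 5 calls were made in all 10 alternatives in which the tests could be run, but some of these alternatives could not have changed them. All cDC1 groups were high set, so the changes of the set term and the high set alone repeated the same fit. Raising the minimum number of cells per hashtag group left out none of the cDC1 groups. Leaving out 1 hashtag group ended the call in WT food allergy (hashtag 7 of control, 4 or 5 of food allergy), App acute colitis (its hashtag 5) and App chronic colitis (its hashtag 6, or 7 of control). Here the immediate-early genes were at 6911 to 7824 CPM in WT control and 7737 to 8002 CPM in WT acute colitis, and at 6709 to 7480 CPM in App control and 6232 to 7560 CPM in App acute colitis, overlapping in both. The monocyte markers summed to 115 to 191 CPM in WT control and 364 to 382 CPM in WT acute colitis. The part of either in the result was not tested. Tlr13 in cDC1 had 48.6 and 48.8 CPM in App control and 13.5 and 29.2 CPM in App acute colitis, and did not pass the threshold (adjusted p = 0.0768).

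In cDC2, which present antigen to CD4 T cells, Myd88 had 196 and 274 CPM in WT control and 67.9 and 80.8 CPM in WT acute colitis (log2 change -1.57, SE 0.27, adjusted p = 0.000899). In WT chronic colitis, Cd14 was at 57.0 and 155 CPM against 377 and 388 CPM in control (log2 change -1.95, SE 0.45, adjusted p = 0.0159). Tlr2 was at 42.7 and 22.9 CPM against 81.1 and 111 CPM (log2 change -1.43, SE 0.34, adjusted p = 0.0194). Among all genes, 6.28% were called in acute colitis, where 1 of 5 members was, and 4.14% in chronic colitis, where 2 of 5 were. Immediate-early genes in cDC2 were at 12220 to 12880 CPM in WT control, 10840 to 11130 CPM in acute and 7407 to 9534 CPM in chronic colitis. Monocyte markers were at 834 to 992, 1085 to 1510 and 1552 to 2578 CPM, and their part in these results was not tested. The chronic colitis calls were lost without a set term. Leaving out hashtag 4 ended the acute colitis call. Hashtag 6 of chronic colitis or 7 of control ended both chronic colitis calls, hashtag 6 of control that of Cd14, and hashtag 7 of chronic colitis that of Tlr2.

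In macrophages Cd14 was the only member called for treatment, which does not show that the other members were unchanged. WT control had 2136 and 1747 CPM, acute colitis 792 and 1029 CPM (log2 change -1.08, SE 0.23, adjusted p = 0.00692), and chronic colitis 571 and 1123 CPM (log2 change -1.17, SE 0.25, adjusted p = 0.0124). The groups did not overlap with control, and 1 of 8 members was called in each where 3.87% and 1.6% of all genes were. Leaving out hashtag 6 of control ended both calls, hashtag 4 of acute colitis the first and hashtag 6 of chronic colitis the second. Neutrophil markers were at 31.4 to 48.1 CPM in WT control macrophages. They were at 79.3 to 331 CPM in acute and 153 to 7825 CPM in chronic colitis. Macrophage markers were at 34779 to 45906 CPM in WT control, 31963 to 37560 CPM in acute and 23120 to 27330 CPM in chronic colitis. They overlapped with control in acute colitis and were lower in chronic colitis. Median UMIs were 2237 to 2270 in WT control, 3280 to 3715 in acute and 3123.5 to 3960.5 in chronic colitis. Immediate-early genes overlapped with control in both. The part of these properties in the result was not tested. App control had 1009 and 1422 CPM and App food allergy 478 and 560 CPM, a log2 change of -1.22 that missed the threshold (adjusted p = 0.164).

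**Figure D4:**
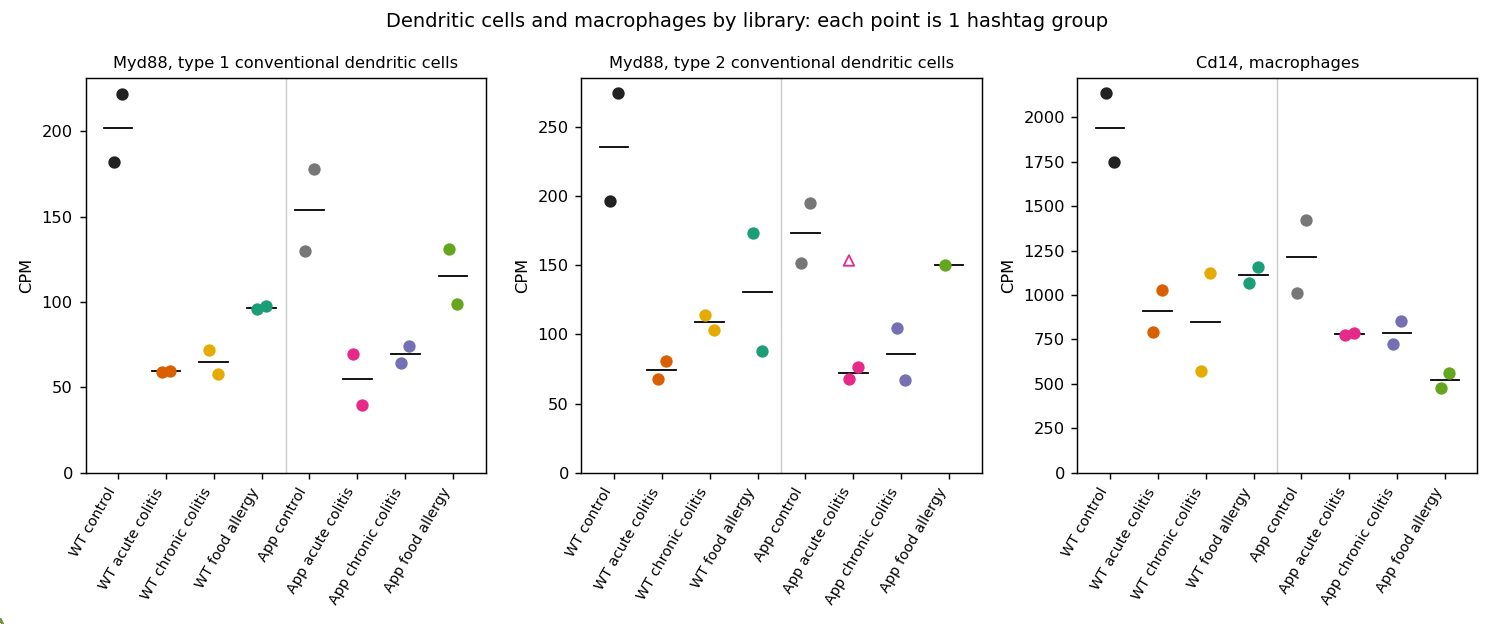
CPM by library for Myd88 in cDC1 and in cDC2 and for Cd14 in macrophages, drawn as in the monocyte plot. WT control holds the highest groups in the cDC1 and macrophage panels, at 182 and 222 CPM and at 2136 and 1747 CPM.

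Neutrophils gave no member calls for treatment when both sets were fitted together. Cd14 stood at 1974 and 3439 CPM in WT control and at 917 and 1211 CPM in WT acute colitis (log2 change -1.54, SE 0.60, adjusted p = 0.115). With the high set alone it was called in WT acute colitis (log2 change -1.55, adjusted p = 0.000314), WT chronic colitis (-1.98, adjusted p = 6.51e-05) and App acute colitis (-1.18, adjusted p = 0.0221). Trem1 was then called in WT chronic colitis (-1.04, adjusted p = 0.00898). The share of all genes called in these fits is not given. In high-set neutrophils, median UMIs were 8356 to 9668 in WT control, 1889 to 2520 in acute and 3444 to 5232 in chronic colitis. They were 10883 to 11504 in App control and 2474 to 3079 in App acute colitis. Neutrophil markers were at 246520 to 256780, 256150 to 312880, 328870 to 386700, 361220 to 369970 and 376830 to 381270 CPM in the same order. The part of depth and markers in these calls was not tested. When both sets were fitted together, Cd14 was at -1.91 (SE 0.61) in WT chronic colitis but at -0.09 (SE 0.54) in App acute colitis. As given above, the low-set group of App acute colitis lay above the low-set groups of App control. Its high-set groups lay below those of App control, and the fit gives a single change for both sets. Trem1 in WT chronic colitis was at -0.96 (SE 0.36) in that fit. In neutrophil precursors, the fit with the set term called Cd14 lower in WT chronic colitis (log2 change -1.78, SE 0.42, adjusted p = 0.0297, with 1.8% of genes called). WT chronic colitis had high-set groups only, at 51.7 and 96.3 CPM. WT control had 280 CPM in its high-set and 7.19 CPM in its low-set group. Summed over groups, the level was not lower, at 54.4 CPM in WT chronic colitis and 53.4 CPM in WT control. Neutrophil markers were at 439 to 3177 CPM in WT chronic colitis precursors and 20110 CPM in the high-set control group, and their part in the result was not tested. That control arm had a single group in each set, and the call was lost in 4 of 8 alternatives and without hashtag 6 of either library.

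Between the untreated genotypes, 3 of 53 member tests in 13 cell types were called, all lower in App control monocytes. Of all gene tests in the 14 cell types with this comparison, 2.14% were called. Cd14 was lower by a log2 difference of -0.91 (SE 0.21, adjusted p = 0.0118), Trem1 by -0.91 (SE 0.24, adjusted p = 0.0364) and Tlr2 by -0.73 (SE 0.17, adjusted p = 0.0139), from the values given above. In this comparison 2.98% of all genes were called in monocytes. As given above, monocyte markers and immediate-early genes were lower, and neutrophil markers higher, in both high-set groups of App control than in those of WT control, and their part in the result was not tested. Leaving out hashtag 7 of WT control left 0 of these calls, and leaving out hashtag 6 or 7 of App control left 1. None was called without a set term. Myd88 in cDC1 did not pass (log2 difference -0.26, SE 0.19, adjusted p = 0.683).

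Whether treatment effects differed between App and WT was tested as an interaction. None of 129 member tests was called by edgeR, 12 had an unadjusted p under 0.05, and 1.06% of all gene tests were called. A missed threshold does not show that the effects were alike. For Cd14 in macrophages, the App effect minus the WT effect was 0.39 (SE 0.32) in acute colitis, 0.59 (SE 0.34) in chronic colitis and -0.49 (SE 0.34) in food allergy, on the log2 scale. Of the pathway list given next, the interaction was called for Ptgs2 in monocytes in acute colitis (4.06, adjusted p = 0.00178) and for Clec4e in monocytes in food allergy (1.36, adjusted p = 0.00955), with the App effect above the WT effect in both, and for Nfkbia in CD8 T cells (1.11) and Tyrobp in neutrophil precursors (-0.996) in chronic colitis.

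The wider pathway was followed with a list of 70 genes by role. In neutrophils 13 of 49 listed genes tested were higher in the high set and 3 lower, where 19.3% of all genes were called. Of the 11 induced genes tested, 10 were higher, including Ptgs2, the inducible cyclooxygenase (log2 difference 7.29), and the chemokines Ccl4 (6.85) and Ccl3, which had 859 UMIs in the high and 1 UMI in the low set (ratio of CPM 814, exact 95% interval 146 to 32178). The 3 lower were Tirap, an adaptor of TLR2 and TLR4 (-0.90), Tab2 (-0.68, though its summed level was 29.2 CPM in the high and 24.7 CPM in the low set) and the formyl peptide receptor Fpr2 (-0.67). In precursors 7 of 55 were higher and 0 lower, with 2.1% of all genes called, led by Cxcl2 (7.72), Il1b (6.36) and Ptgs2, with 265 UMIs against 3 (ratio of CPM 74.2, exact 95% interval 25.1 to 362). Tnfaip3, which restrains NF-kappaB signalling, was higher in CD4 T cells (2.26), CD8 T cells (2.14), gamma-delta T cells (2.36), NK cells (2.23) and ILC2 (1.88). The sets were defined from these same T cells, so the T cell values are not independent of them. Over all cell types, 4.81% of gene tests between the sets were called.

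In WT acute colitis monocytes, 4 of 55 listed genes were higher and 14 lower, where 12.4% of all genes were called. The largest falls were in the formyl peptide receptors, with 1 UMI of Fpr1 (ratio to control 0.0491, exact 95% interval 0.00123 to 0.281) and 2 UMIs of Fpr2 (0.0918, 0.0110 to 0.341), and in Ptgs2 (log2 change -3.38). The largest rises were in Cd180, a TLR4 homologue (2.52), Naip5 (1.13) and Ly86, the partner of CD180 (0.86). In WT food allergy monocytes, where 7.1% of all genes were called, 2 were higher, Cd180 (1.90) and Ly86 (0.90), and 13 lower, led by Acod1, with 0 UMIs against 77, Fpr1 (-3.14) and Cxcl2 (-3.12). In App acute colitis monocytes, Ly86 was higher (0.87), and Il1b (-1.52) and the C-type lectin receptor Clec4e (-1.33) were lower. In App chronic colitis monocytes, Cd180 was higher (1.87) and 4 genes were lower, led by Cxcl2 (-3.60), Il1b (-2.11) and Clec4e (-1.21).

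In cDC1, Cd180 was higher in the 5 comparisons in which Myd88 was lower, by 2.31, 2.36 and 2.07 in acute colitis, chronic colitis and food allergy of WT mice and by 1.35 and 1.34 in acute and chronic colitis of App mice. Tmem173, which encodes the cytosolic DNA pathway adaptor STING, was lower in the same 5, by log2 changes of -1.80, -1.88, -1.24, -1.25 and -1.48. Treml4 was higher in 4 of them, by 1.07 to 1.88, and Tlr3, the receptor for double-stranded RNA, in WT chronic colitis (1.06). Cd36 was higher in WT acute (1.48), WT chronic (1.48) and App chronic colitis (0.96). Il1b was lower in App acute (-2.26) and App chronic colitis (-1.86). Ccl4 was lower in WT acute colitis (-1.10), WT food allergy (-1.28) and App acute colitis (-1.39). Also lower were Ifih1 (-2.08) and Nfkbia (-0.55) in WT chronic colitis and Ikbkb (-0.85) in WT acute colitis. The comparisons of 1 genotype share their control groups.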

How the data were processed

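The deposited matrices hold UMI counts per gene and barcode, which the authors made by aligning 10x 5′ reads to mm10. The submitters' processing notes name Cell Ranger 6.1.2 and the matrix headers name Cell Ranger 4. Cells were called again from all barcodes by an order-of-magnitude cutoff and a test against the ambient profile (false discovery rate 0.01), and kept with 200 or more genes and up to 5% of UMIs from mitochondria. They were clustered with scanpy 1.11.5 (Leiden, resolution 1.0), named by marker lists, and gated on UMIs of 2 or more of its markers. Cells with several hashtags were left out of types as doublets. The members, marker lists and pathway list were chosen with earlier results of these data known.

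UMIs were summed by hashtag group with at least 20 cells and tested with edgeR 4.0.16 (quasi-likelihood, R 4.3.3), with library and immediate-early set as terms. Benjamini-Hochberg adjustment of p-values ran over all genes of a cell type and comparison, with a threshold of 0.05. Sets were defined from T cells, which are therefore not independent of them. A first version had a set term only where each set had 2 groups; it was replaced by the version stated in the design after its results, and those of the high set alone, had been seen. The design named all members and, per comparison, up to 3 called pathway genes with the largest rise and 3 with the largest fall. Not every pathway gene under this rule is printed, such as those of cDC2 and macrophages. Tlr3 in cDC1 lies outside it. The test was tried on simulated counts for 6251 genes of neutrophils: between the sets it recovered 93.8% of changes of 2 on the log2 scale and 30.8% of changes of 1, and between App acute colitis and App control 59.4% and 8.65%. Every simulated gene had the same spread, and libraries differed only in depth and the planted changes. These shares may therefore not hold for the measured genes. Intervals and floors (3 counts) cover counting error only. Alternatives included DESeq2 1.42.0, other filters, doublet scores and leaving out each hashtag group. Scrublet's own threshold marked 0 to 3 cells per library and had not worked, so the highest scores at the expected rate were removed instead.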

Additional observations from a re-analysis of the deposited data

How the results depend on the processing

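No paired analysis was possible because hashtag numbers name groups inside a library and no source ties a number to the same animal across libraries. The 25 calls for treatment became 49 with no filter on low counts, 15 at cluster resolution 0.5, 11 with at least 50 cells per hashtag group, 11 with a set term only where each set had 2 groups, 10 with no set term and 0 with the low set alone, which had 38 tests, 4 of them at an unadjusted p under 0.05. The version with a set term only for 2 groups was fitted first, and the reported version with 25 calls replaced it after results had been seen. Calls in cDC1 and macrophages, which had only high-set groups, could not change with the set term. The 3 calls between control genotypes became 1 with DESeq2, 5 with no filter, and 0 at resolution 0.5, with 50 cells, with either change of the set term or with the low set alone; leaving out 1 hashtag group gave 0 to 3. The 6 calls between sets stayed between 5 and 7 in the alternatives run. Pathway calls numbered 152 in 102 fits, which include the comparison of the sets, and 51 in 93 fits with no set term, which do not. The leading cell type was kept for 5 of 10 members at resolution 0.5 and 6 with the order-of-magnitude cutoff alone. At resolution 0.5 no cluster was named monocytes or microglia, so members led by them could not keep their leader and monocyte calls could not be made. Causes of the other changes were not tested. No direction was reversed in any alternative run. Low counts limit Nod2, which was not tested, and in monocytes, macrophages and dendritic cells libraries often had only 2 hashtag groups.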
